A study of Mus musculus with 451 samples.

Results

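The transcription factor Mohawk (Mkx) was read in some wild-type (WT) tenocytes of the mouse tail tendon and not in others. The cells were chosen by a level of tendon genes in the raw count table. A WT cell was taken as a tenocyte when the mean of log2(CPM+1) over Tnmd and Fmod was 10 or more, where CPM is the number of reads of a gene per 1000000 reads of its cell. This rule found 78 of the 227 WT cells, in a series that also held 224 Mkx-/- cells. The 78 cells were then split into 45 cells with at least 1 Mkx read and 33 cells with 0 Mkx reads, and every other gene was compared between these 2 sets. Because Mkx, Tnmd and Fmod chose the sets, their values are given as a description only.

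The series held single cells from tail tendons of 4-week-old C57BL/6 mice, 227 labelled WT and 224 labelled Mkx-/-, released with collagenase and caught one by one on a Fluidigm C1 chip. Both groups shared strain, age, tissue and digestion, and no further treatment was given. Mkx-/- mice, used in the study as a model of bone formation inside tendon, are homozygous for the mutant allele by their label, and the deleted part of the gene is not given in the sources used here. Each library was 1 cell, and no label named the animal or chip it came from. All cells of a genotype therefore counted as 1 sample, cells are not replicates, and no test or p-value was possible. In its place each ratio has a 95% interval that covers counting error only, and counts of list members are read against the share of all genes past the same fold.

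Mkx is a homeodomain protein of the TALE class, a group of factors with a 3-residue loop in the DNA-binding domain. It is expressed in differentiating tendon cells and is needed for normal type I collagen content and fibril growth in tendon. Tenocytes, the cells that lie between the collagen fibrils of mature tendon, are known for type I collagen, the membrane glycoprotein tenomodulin (Tnmd) and the collagen-binding proteoglycan fibromodulin (Fmod). In single cells a gene can be missed because few of its molecules were captured, so a cell with 0 reads is not the same as a cell without the transcript.

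Of the 78 WT tenocytes, 57.7% held a Mkx read (interval 45.98 to 68.8). Below the threshold 7 WT cells held one, or 4.70% (1.91 to 9.44), at a lower median depth of 41921 reads against 81693 reads. After every cell was thinned to 26755 reads, the lowest total of the 78 cells, the shares were 52.6% of the tenocytes and 3.08% of the 130 remaining cells below the threshold. Mkx reads were thus found mainly in the Tnmd- and Fmod-rich cells, which held 450 of the 461 Mkx reads of the WT cells (97.6%). The threshold lay in a sparse range of the score. The nearest cells below it scored 8.06 and 9.99, the nearest above it 10.27, 10.33 and 10.48, and none of these 5 cells held a Mkx read. The rule genes themselves overlapped between the sets. Tnmd was at 1441 to 7423 CPM (median 3959) in cells with and 951 to 7241 CPM (median 3925) in cells without Mkx reads, and Fmod at 2216 to 9048 CPM (median 4894) and 999 to 7156 CPM (median 3579).

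Mkx ranged from 1 to 28 reads in the 45 cells, with a median of 9 reads. As a level it ranged from 8.72 to 646 CPM, with a median of 95.1 CPM. Only 5 of the 45 cells rested on a single read, whereas 33 cells had 5 reads or more and 21 had 10 or more. The 10 cells with the most Mkx reads held 45.3% of them. In a cell with 0 Mkx reads, counting of reads alone still allowed a level of up to 3 reads. This was 37.9 CPM in the median cell (8.93 to 112.1). The limit does not cover molecules lost before sequencing, so such a cell could hold more Mkx transcript than it allows. In 32 of the 33 cells this limit was under the median level of the cells with reads, and 35 of the 45 cells with reads were above the median limit. Reads carried no molecular tags, so reads copied from 1 molecule could not be told from separate molecules.

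The 2 sets were close in depth. Cells with Mkx reads had 32901 to 202480 reads in total (median 85254) and 1852 to 5288 detected genes (median 3122). Cells without had 26755 to 335813 reads (median 79258) and 1812 to 9924 detected genes (median 3097). From the shallowest to the deepest of 3 equal groups of 26 cells, the share with Mkx reads was 61.5%, 53.8% and 57.7%, without a steady order. Split at the median total, it was 61.5% (44.6 to 76.6) of the 39 cells at or above it. It was 53.8% (37.2 to 69.9) of the 39 cells under it, so the intervals overlapped. When all cells were thinned to the lowest total before the split, 41 cells kept a Mkx read, and 36 to 42 cells kept one over 20 random draws. The 4 cells that lost Mkx in the first draw had held 1 to 5 Mkx reads.

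**Figure D1:**
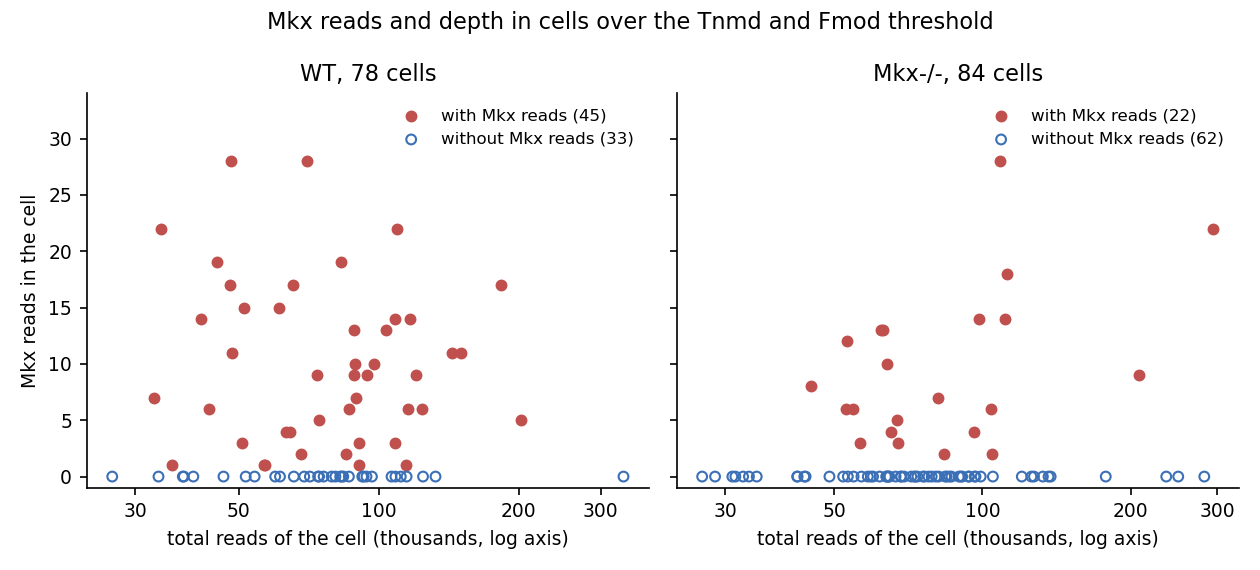
Mkx reads in each cell (vertical axis) against the total reads of that cell (horizontal log axis, in units of 1000 reads) for the 78 WT cells and the 84 Mkx-/- cells that met the Tnmd and Fmod threshold. Filled points are cells with Mkx reads and open circles cells without; in WT cells both kinds occurred over nearly the whole range of depth, and the deepest WT cell, at 335813 reads, had none.

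Markers of the label were checked in the same cells. Col1a1, Col1a2 and Sparc were read in all 78 cells and Col11a2 in 96.2% of them, and their summed levels were far above those of the other WT cells (for Col1a1, 107594 against 7033 CPM). The progenitor markers Cd44, Ly6a and Fstl1 were lower than in the other WT cells but not absent (Ly6a, 555 against 2886 CPM). Col2a1, a cartilage collagen, was read in 88.5% of the 78 cells and Sox9, a cartilage and tendon transcription factor, in 69.2%. The other cartilage genes were sparse, with Acan in 25.6%, Hapln1 in 8.97% and Col9a1 in 1.28% of cells and Matn1 at 0 reads. The 78 cells had 78 distinct sets of counts.

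One well stood apart by its depth and lay in the set without Mkx reads. It was the deepest of the 78, with 335813 reads where the next had 202480, and it gave 12.05% of all reads of that set. Its score of 10.48 was among the nearest to the threshold, and its level of Fmod (1346 CPM) was the second lowest of all 78 cells. This well held all reads of the endothelial genes Cdh5 and Kdr and of the mural gene Rgs5. Results that rest on it are given with and without this well. A further cell of the same set had 7734 detected genes at 114819 reads, where cells with Mkx reads had at most 5288 detected genes. That cell was kept in all values given without the deepest well, and its part in the ratios was not tested.

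Over all other genes, 5856 had at least 100 reads in the 78 cells and were compared. A gene was counted as different when its summed CPM differed at least 2-fold. By this measure 6.8% of the genes were higher and 15.3%, or 895 genes, lower in cells with Mkx reads. Without the deepest well 523 (8.94%) were higher and 820 (14%) lower, and after thinning before the split 512 (8.74%) were higher and 975 (16.6%) lower. The median log2 ratio over all genes was -0.19, or -0.12 without the deepest well. Ratios, calls and list medians below are not centred on it, so a ratio of 0 lies above the median gene. Centred on that median, 548 genes were higher and 655 lower. Col1a1, Col1a2 and Sparc took 33.2% of all reads in cells with Mkx reads and 25.9% in cells without. Their share in cells without was 27.7% when the deepest well was left out. Whether this difference in share accounts for the negative median was not tested.

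Genes with few reads passed 2-fold more often than genes with many. It was 30.9% of the 3188 genes with 100 to 300 reads, 14.4% of 1864 genes with 300 to 1000 reads, 4.40% of 591 genes with 1000 to 3000 reads and 5.20% of the genes with 3000 to 10000 reads. In the top class, 3 of 40 genes with 10000 reads or more (7.5%) were past 2-fold, so the share did not fall further above 1000 reads. These 3 genes were all lower, and in each 1 cell gave 44.3% to 56.1% of the reads in the set without Mkx. Without the deepest well 2 of the 40 genes were past 2-fold. The sparsest class was read in a median of 24.4% of the cells, and there 1 cell gave a median of 27.7% of a gene's reads in the set with Mkx and 32.4% in the set without. Most large ratios thus came from genes read in few cells. Of the higher genes 34, or 8.54%, and of the lower genes 16.4% were at least 2-fold different in the same direction in summed reads, with each cell weighted equally, without the leading cell of each set, in all 20 thinned draws and without the deepest well and were read in 20% or more of the cells of the higher set.

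**Figure D2:**
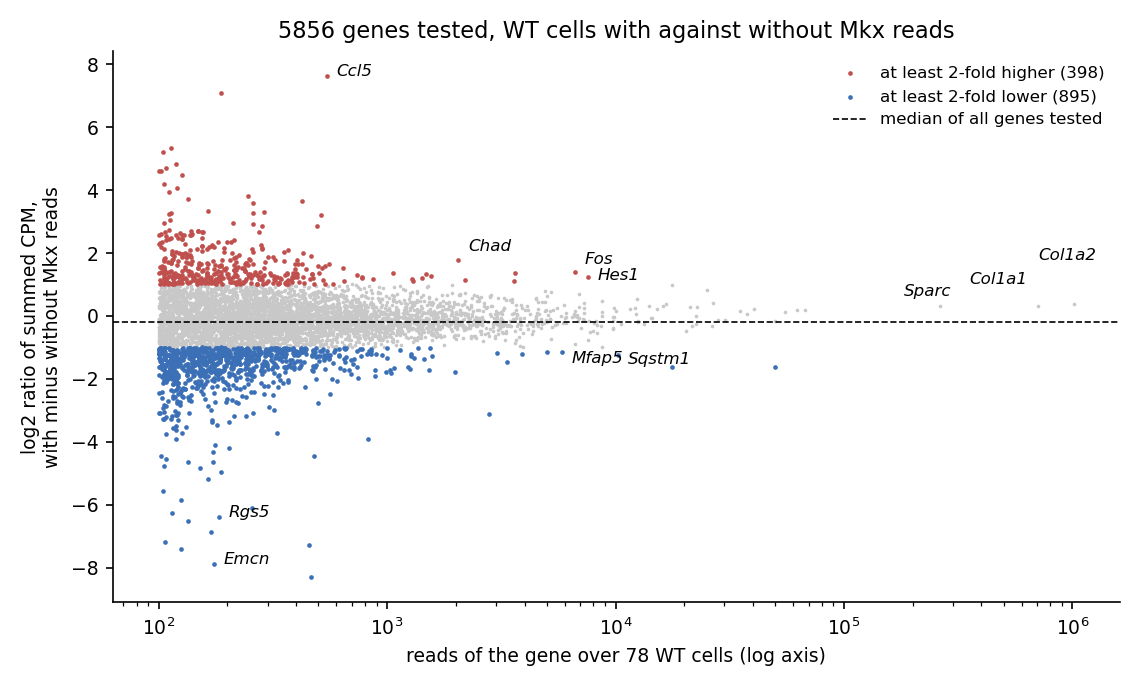
log2 ratio of summed CPM in cells with against cells without Mkx reads (vertical axis) by the reads of the gene over the 78 WT cells (horizontal log axis), for 5856 genes. Points past 2-fold are red (6.8% of the genes) or blue (15.3%); the spread narrows as reads increase, and the dashed line is the median of -0.19.

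None of the 9 fibrillar collagens, which form the load-bearing fibrils, was at least 2-fold different. Their log2 ratios ran from -0.70 to 0.79 and the median was 0.08, against -0.19 for all genes. Together they took 292848 CPM in cells with and 228551 CPM in cells without Mkx reads, or 244340 CPM there without the deepest well. Col1a2 was read at 80780 to 276519 CPM (median 164503) in cells with Mkx reads and at 9744 to 236408 CPM (median 136569) in cells without. The sets overlapped over most of this range, and the lowest cells were in the set without. Its log2 ratio was 0.39 (0.38 to 0.39), or 0.30 without the deepest well, and that of Col1a1, which encodes the other chain of type I collagen, was 0.33 (0.32 to 0.34). Col3a1, the collagen of thin and early fibrils, stood at -0.32 (-0.38 to -0.26), while its medians over cells were 156.2 and 762 CPM with and without Mkx reads and 1 cell held 25% of its reads in the set with Mkx. Col11a1, a collagen that nucleates fibrils, stood at 0.18 (0.10 to 0.26).

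Among 13 other collagens, 1 was higher (7.69%, against 6.8% of all genes), 3 were lower (23.1%, against 15.3%) and the median was 0.24. The type VI chains Col6a1, Col6a2 and Col6a3, which build the microfibrils around cells, had log2 ratios of 0.22 (0.18 to 0.27), 0.24 (0.18 to 0.30) and 0.28 (0.21 to 0.35). Col8a1, a short-chain network collagen, stood at 0.61 (0.49 to 0.73). Its partner Col8a2 was the member above 2-fold, read in 27 of 45 cells with Mkx reads (0 to 430.2 CPM, median 41.7) and in 12 of 33 cells without (0 to 196.5 CPM, median 0). Here the sets overlapped, but most cells of the second set were at 0. The summed ratio of Col8a2 was 1.35 (0.98 to 1.72) and ranged from 0.69 to 1.70 over the thinned draws.

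The 3 lower members were basement membrane collagens, Col4a1 at -1.72, Col4a2 at -1.61 and Col18a1 at -3.30. These genes are known from vessel walls, and 47.4%, 54.1% and 67.5% of their reads in the set without Mkx came from 1 cell. Leaving out the deepest well brought Col4a1 to -0.98 and Col4a2 to -0.68, under 2-fold, and Col18a1 to -1.86. The endothelial list moved with them. Its summed level was 208.1 CPM in the set without Mkx reads, 37.5 CPM there without the deepest well and 10.7 CPM in the set with Mkx reads.

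Of 8 small leucine-rich proteoglycans, which bind collagen and set fibril width, 1 was higher (12.5%, against 6.8% of all genes), none was lower and the median was 0.17. Dcn (decorin) was read in every cell, at 4106 to 18016 CPM (median 8966) with and 1802 to 18253 CPM (median 8911) without Mkx reads, and its log2 ratio was 0.13 (0.11 to 0.15). Kera (keratocan) stood at 0.44 (0.35 to 0.52) and Lum (lumican) at 0.22 (0.08 to 0.36). Chad (chondroadherin, a cartilage and tendon matrix protein that binds integrin) was the member past 2-fold. It was read in 35 of 45 cells with Mkx reads (0 to 2579 CPM, median 192.8) and in 16 of 33 without (0 to 1271 CPM, median 0). The upper ends of the sets overlapped, and the difference lay in the number of cells at 0. Its log2 ratio was 1.78 (1.61 to 1.95), 1.01 with equal cell weights, and 0.24 to 1.29 over the thinned draws. Prelp, a proteoglycan of the same family, stood at -0.94 (-1.07 to -0.80) and passed 2-fold without the deepest well, at -1.06.

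Of 21 enzymes and chaperones that process collagen, none was higher, 3 were lower (14.3%, near the 15.3% of all genes) and the median was 0.17. The 4 with the most reads were Pcolce, an enhancer of propeptide cleavage, at 0.31 (0.26 to 0.35), the crosslinking enzyme Lox at 0.54 (0.49 to 0.59), P4hb, a subunit of prolyl 4-hydroxylase, at -0.01 (-0.07 to 0.05), and the propeptidase Adamts2 at 0.00 (-0.07 to 0.07). Lox was read in all 78 cells, at 419.2 to 4367 CPM (median 2109) with and 81 to 3244 CPM (median 1468) without Mkx reads, with broad overlap. The 3 lower members were read in few cells: the lysyl hydroxylase Plod2 at -1.60 (-2.04 to -1.17), the prolyl hydroxylase subunit P4ha2 at -1.26 (-1.71 to -0.82) and the crosslinking enzyme Loxl4 at -1.25 (-1.63 to -0.89). Plod2 was read in 9 of 45 cells with and 15 of 33 cells without Mkx reads.

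Of 32 genes of the endoplasmic reticulum, where collagen is folded and exported, 1 was higher and 1 was lower (3.13% each, under the 6.8% and 15.3% of all genes), and the median was -0.10. The chaperone Hspa5 stood at -0.20 (-0.29 to -0.11), and the translocon parts Sec61b, Ssr2 and Ssr4 at 0.40, -0.08 and -0.14. Sec23a, a coat protein of the vesicles that carry procollagen to the Golgi, was read in 34 of 45 cells with Mkx reads (0 to 543 CPM, median 91.4) and in 19 of 33 without (0 to 337.3 CPM, median 20.7). Both sets held cells at 0, and the highest cells were in the set with Mkx reads. Its log2 ratio was 1.29 (1.04 to 1.54), and it was 0.64 to 1.60 over the thinned draws. The chaperone Dnajb11 was the lower member, at -1.12 (-1.42 to -0.82), and stood at -0.81 without the deepest well.

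Matricellular and pericellular matrix proteins, which tune how cells meet the matrix, had a median of -0.15 over 23 members, with none higher and 3 lower (13.04%, near the 15.3% of all genes). Sparc, a collagen-binding glycoprotein, stood at 0.32 (0.31 to 0.33) and Thbs4, a thrombospondin of tendon, at 0.31 (0.26 to 0.36). Ctgf, a growth-factor-binding matrix protein, stood at -0.37 (-0.44 to -0.30), and Fbn1, the main fibrillin of elastic microfibrils, at -0.88 (-0.95 to -0.81). Mfap5, a glycoprotein bound to those microfibrils, was read at 0 to 4476 CPM (median 123.98) in cells with Mkx reads and at 14.1 to 5601 CPM (median 449.7) in cells without. No cell of the second set was at 0, while 2 of the first were, and otherwise the sets overlapped. The summed ratio of Mfap5 was -1.15 (-1.22 to -1.07), -1.27 without the deepest well and -1.11 to -0.60 over the thinned draws. Thbs1, a thrombospondin that inhibits vessel growth, stood at -1.44, and 53.2% of its reads in the set without came from 1 cell; leaving out the leading cell of each set gave -0.78. Sparcl1 stood at -2.24, and at -0.62 without the deepest well.

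**Figure D3:**
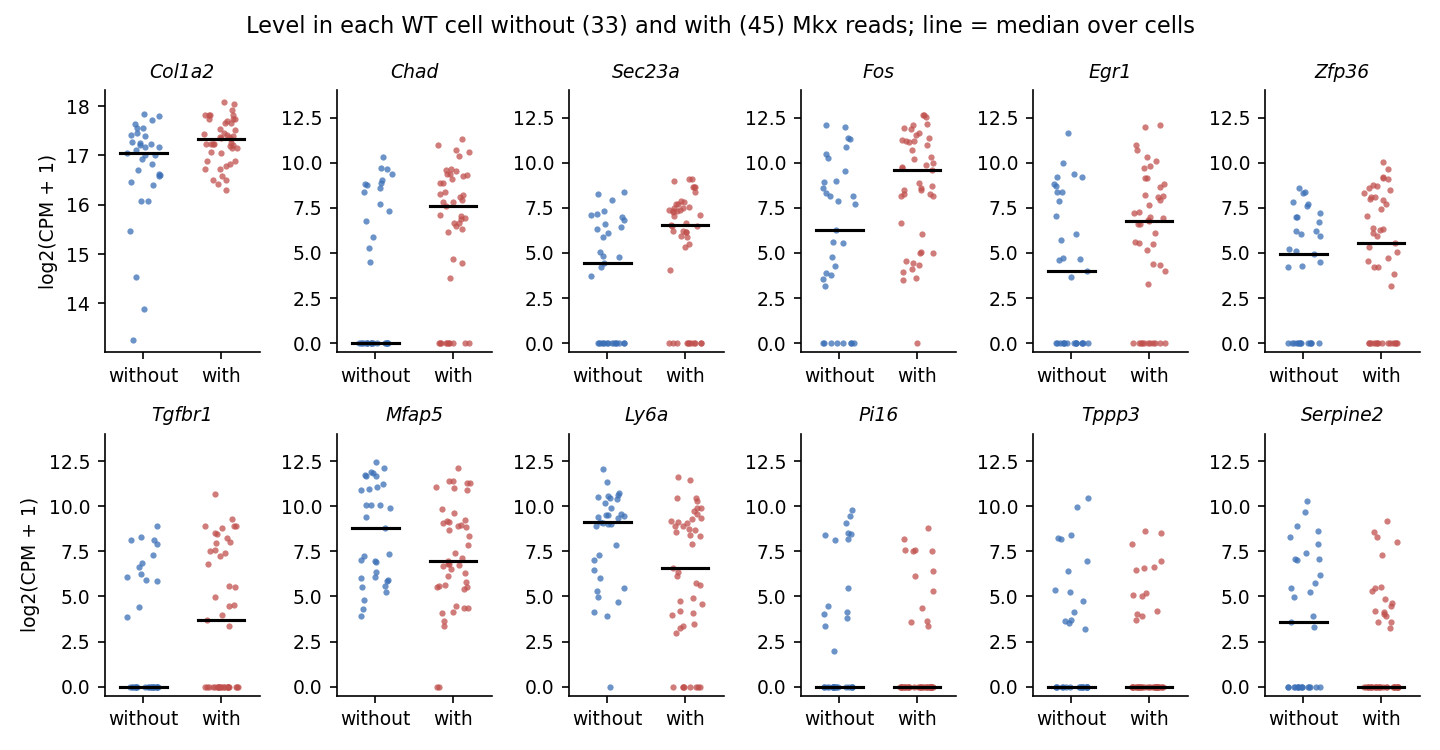
Level of 12 genes as log2(CPM + 1) in each of the 33 WT cells without (left) and the 45 with (right) Mkx reads, with the median over cells as a line. The sets overlapped for every gene; Fos, Egr1, Chad and Sec23a had higher medians with Mkx reads, and Mfap5, Ly6a and Serpine2 lower ones.

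Transcription factors of tendon came next, since Mkx is one of them. Of 13 genes 12 had a read and only 7 reached 100 reads, of which 3 were higher (42.9%, against 6.8% of all genes) and 1 lower (14.3%, against 15.3%), with a median of 0.63. Without the deepest well 1 of the 7 was higher. Scx (scleraxis), a helix-loop-helix factor that marks tendon cells early, was read in 26 of 45 cells with Mkx reads (0 to 777 CPM, median 51) and in 16 of 33 without (0 to 618 CPM, median 0). The difference was under 2-fold, at 0.63 (0.38 to 0.88), and it was 0.03 to 0.69 over the thinned draws. Foxp1, a forkhead factor, stood at 0.08 (-0.13 to 0.29). Egr1, a zinc finger factor that responds to mechanical load in tendon, stood at 1.13 (0.99 to 1.27), its relative Egr2 at 1.04 (0.60 to 1.49), and the homeodomain factor Six2 at 1.09 (0.51 to 1.69). Without the deepest well Egr1 stood at 0.96 and Six2 at 0.95, both under 2-fold. Tcf7l2, a factor of Wnt signaling, was the lower member, at -1.01 (-1.44 to -0.58). Summed per cell, the 13 genes had a median of 459 CPM with and 480.4 CPM without Mkx reads, so the cells as a whole did not separate. By Mkx reads, the median was 493 CPM in the 12 cells with 1 to 4 reads, 329.5 CPM in the 12 cells with 5 to 9 and 848 CPM in the 21 cells with 10 or more, with no steady order.

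Other members of the TALE class were sparse. Of 15 genes, 12 had a read and 4 reached 100 reads. Tgif1, a repressor of transforming growth factor beta signaling, was read in 40 of 45 cells with (median 236.3 CPM) and 31 of 33 without Mkx reads (median 568 CPM), and stood at -0.25 (-0.34 to -0.16). Pknox1, another member of the class, stood at 0.51. Pbx3, a partner of Hox proteins, was lower at -2.02 (-2.49 to -1.57), from reads in 5 and 7 cells.

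The transforming growth factor beta pathway induces tendon and matrix genes. Its 14 members tested had a median of 0.34, with 2 higher (14.3%, against 6.8% of all genes) and 1 lower (7.14%, against 15.3%). The ligand Tgfb2 stood at 0.36 (0.19 to 0.52), and the latency proteins Ltbp3 and Ltbp1 at 0.20 and -0.36. Tgfbr1, the type I receptor, was read in 24 of 45 cells with Mkx reads (0 to 1607 CPM, median 11.7) and in 14 of 33 without (0 to 480.4 CPM, median 0). Its log2 ratio was 1.20 (0.96 to 1.45). The inhibitors Smad7 and Skil stood at 1.24 (0.90 to 1.59) and 0.65 (0.53 to 0.77). In both higher genes the sets overlapped and many cells were at 0.

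Immediate early and heat shock genes, which respond within minutes to growth signals, load and stress, were the list with the most higher members. Of 15 genes tested, 6 were higher (40.0%, against 6.8% of all genes), none was lower, 13 were above 0 and the median was 0.59. Fos, a subunit of the AP-1 factor, was read in 44 of 45 cells with Mkx reads (0 to 6459 CPM, median 766) and in 25 of 33 without (0 to 4370 CPM, median 74.8). Both sets held cells at high levels, and cells with no Fos read were 8 of 33 in the set without and 1 of 45 in the set with. Its log2 ratio was 1.39 (1.30 to 1.47), 1.19 with equal cell weights, 1.31 without the deepest well and 1.11 to 1.61 over the thinned draws.

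Junb, another AP-1 subunit, was read at medians of 127.2 and 64.2 CPM in cells with and without Mkx reads and had a ratio of 1.11 (0.93 to 1.30). Egr1, which is also counted among the higher tendon transcription factors above, had medians of 107.5 and 15.2 CPM. The 2 lists are thus not separate. Zfp36, which destabilizes mRNA, had medians of 46.4 and 29.7 CPM and a ratio of 1.16 (0.94 to 1.39). The cochaperone Dnajb1 stood at 1.17 (0.99 to 1.36). Hspa1a, an inducible heat shock protein, stood at 2.86 (2.41 to 3.33), but 1 cell held 54.4% of its reads in the set with Mkx and the thinned draws ran from -2.20 to 3.35. The 3 other leading members were under 2-fold, with Hspa8 at 0.14, Ier3 at 0.44 and Atf3 at 0.57. Summed per cell, the 16 genes of the list ranged from 674 to 27301 CPM (median 5133) with and from 1126 to 15197 CPM (median 3936) without Mkx reads. Cells with 1 to 4 Mkx reads had a median of 5665 CPM, cells with 5 to 9 reads 4590 CPM and cells with 10 or more 5166 CPM, so the level did not follow the number of Mkx reads. This last grouping was chosen after the values had been seen.

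Tendon progenitor markers, genes of the connective tissue progenitors around the fibrils, lay in the other direction. Of 13 members none was higher, 3 were lower (23.1%, against 15.3% of all genes), 2 were above 0 and the median was -0.57. Fstl1, a secreted follistatin-like protein, was read in all 78 cells, at medians of 1687 and 1846 CPM, and had a ratio of -0.48 (-0.52 to -0.44). The surface proteins Cd44 and Ly6a stood at -0.47 (-0.56 to -0.38) and -0.76 (-0.86 to -0.67). Ly6a was read in 37 of 45 cells with Mkx reads (0 to 3132 CPM, median 93) and in 32 of 33 without (0 to 4224 CPM, median 563). Thy1, a further surface protein, was at 0.30 (0.16 to 0.43).

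The 3 lower progenitor markers were sparse genes. Tppp3, which marks cells of the tendon sheath, was read in 14 of 45 cells with (0 to 396.9 CPM) and in 15 of 33 cells without Mkx reads (0 to 1377 CPM), with a median of 0 in both sets. It stood at -1.71 (-2.01 to -1.42) and at -2.38 to -1.07 over the thinned draws. The fibroblast gene Pi16 stood at -1.56 (-1.85 to -1.28), from 13 and 15 cells. Scara5, a ferritin receptor, stood at -1.08 (-1.32 to -0.84), and its thinned draws reached 0.09. Per cell, the 13 genes together ranged from 856 to 19032 CPM (median 2922) with and from 237.1 to 23954 CPM (median 4088) without Mkx reads. The ranges overlapped almost fully. Genes of intermediate cells had a median of -0.53 over 4 members. Among them Serpine2, a protease inhibitor of the matrix, was lower at -2.01 (-2.29 to -1.73), and Lgals3, Myoc and Itm2a stood at -0.08, -0.69 and -0.36.

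Osteochondrogenic genes, the subject of the study in Mkx-/- tendon, had a median of -0.17 over 12 members in this WT split, with none higher and 1 lower (8.33%, against 15.3% of all genes). Mgp, an inhibitor of matrix calcification, was read in all 78 cells and stood at 0.38 (0.33 to 0.42), but at -0.11 with equal cell weights and at -0.51 to 0.18 over the thinned draws. Col2a1 stood at 0.08 (-0.05 to 0.20), the proteoglycan Ogn at 0.41 (0.26 to 0.57) and Sox9 at -0.49 (-0.64 to -0.34). The growth factor Bmp4 was the lower member, at -1.40 (-1.99 to -0.83), from 12 cells in each set. Angiogenic genes had a median of -0.51 over 4 members. Hif1a, which drives the response to low oxygen, stood at -0.44 (-0.61 to -0.27), the vessel growth factor Vegfa at -0.58 (-0.91 to -0.24), the chemokine Cxcl12 at 0.25, and Thbs1 is given above.

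Housekeeping genes give the size of difference seen in genes of general use. None of 11 was past 2-fold, 1 was above 0 and the median was -0.33, lower than that of all genes. Actb, B2m and Ppia stood at -0.32, -0.55 and -0.20. Cell cycle genes were nearly absent, and 3 of 14 reached 100 reads. Rrm2, a subunit of ribonucleotide reductase, was lower at -1.98, from reads in 5 and 8 cells, while Pcna stood at -0.89 and Mcm6 at 0.98.

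**Figure D4:**
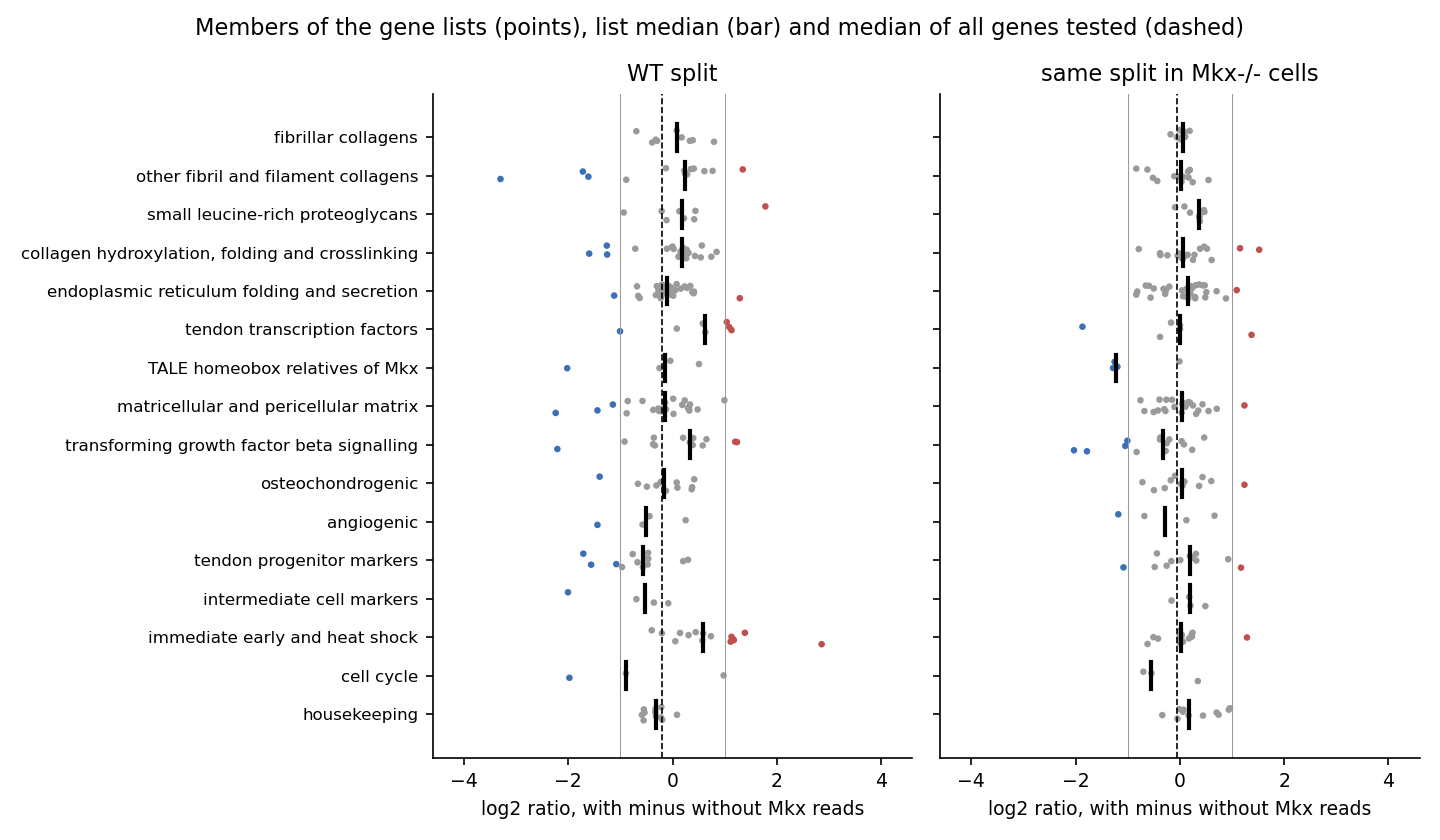
log2 ratios of the members with at least 100 reads, for lists with 3 or more of them other than the Schwann and mural lists (points; red at least 2-fold higher, blue at least 2-fold lower), the list median (bar) and the median of all genes (dashed), for the WT split and for the same split of Mkx-/- cells. In WT the immediate early and heat shock list lay to the right (median 0.59) and the progenitor list to the left (median -0.57); in Mkx-/- cells their medians were 0.03 and 0.19.

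Among genes with at least 3000 reads, 12 were past 2-fold, and of these 4 had symbols of predicted genes. This set was chosen after the values had been seen. The other higher genes were Fos, Hes1 and Btg2. Hes1, a repressor downstream of Notch, was read in 44 of 45 cells with (0 to 11793 CPM, median 592) and in 25 of 33 without Mkx reads (0 to 5618 CPM, median 172.7), with a ratio of 1.24 (1.16 to 1.32) and 0.57 to 1.15 over the thinned draws. Btg2, an antiproliferative gene, stood at 1.11. Of the lower genes, Mfap5 and the membrane-binding protein Anxa8 (-1.22 with and without the deepest well) stayed past 2-fold when that well was left out. The autophagy receptor Sqstm1 (-1.23) and the esterase Esd (-1.19) stood at -0.57 and -0.65 without that well, which held 44.3% and 39.5% of their reads in the set without.

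The 10 highest and 10 lowest ratios that kept their sign with equal cell weights, without leading cells and in the first thinned draw all belonged to genes read in at most 20 of the 45 and 11 of the 33 cells. The chemokine Ccl5 led, with 542 reads in 10 cells of the set with Mkx and 2 reads in the set without. It stood at 7.63 (5.77 to 10.68), and 1 cell held 82.8% of its reads. Serpina3n, an acute-phase protease inhibitor, was read in 13 and 6 cells and stood at 3.20 (2.72 to 3.72). The lysosomal protease Ctsf was read in 17 and 5 cells and stood at 3.28 (2.59 to 4.06). The other higher genes were Ssu72, Gmds, Rpph1, Ick, Rab3il1, Ppp4c and Slc25a12, with ratios from 2.86 to 4.20, of which Rpph1 and Ppp4c changed sign in a thinned draw. The lower genes were led by Wars, a tRNA synthetase, at -6.85 (-9.90 to -4.97) from 2 and 8 cells, and by Il17ra, an interleukin receptor, at -4.83 (-6.17 to -3.75) from 3 and 8 cells. Also among them were Fam65a, Ppp1r7, Nqo1, Rdh13, Pdia5, Nmb and Idh3g, with ratios from -4.64 to -3.38.

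Markers of other cell types were read in few of the 78 cells, and their part in the ratios above was not tested. Endothelial genes were read in 8 cells with and 10 cells without Mkx reads, Schwann and nerve genes in 16 and 12, immune genes in 12 and 8, keratinocyte genes in 7 and 8, erythroid genes in 4 and 1, and skeletal muscle genes in 1 and 2. Mural and smooth muscle genes were read in 35 and 25 cells, at medians of 143.4 and 165.5 CPM, mostly from Pdgfrb and Acta2, which stood at 0.07 and 0.40. Summed over each set, immune genes were at 147.7 CPM with and 20.8 CPM without Mkx reads, Schwann and nerve genes at 85.9 and 488 CPM (194.98 CPM without the deepest well), and mural genes at 191.7 and 281.99 CPM (219.9 CPM without it). Keratinocyte, erythroid and skeletal muscle genes were at 24.04 CPM or less in either set. Single cells led these lists. Of the Lyz2 reads in the set with Mkx, 87.5% lay in 1 cell, and the immune list reached 4823 CPM in its highest cell and was at 0 in the median cell of both sets. Mbp, a myelin protein, was lower at -1.71, and stood at -0.27 without the deepest well. Of the endothelial genes, 5 of 8 were at 0 in the set without Mkx reads once that well was left out, and 3 of 8 were at 0 in the set with Mkx reads. Cspg4, of mural cells, stood at -1.27, with thinned draws up to 0.03.

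The same rule and split were applied to the Mkx-/- cells, which share no cell with the WT sets. Of the 224 cells 84 met the threshold, and 22 of them held Mkx reads (26.2%, 17.2 to 36.9), against 57.7% in WT. After thinning to 26755 reads the share was 22.6%. The 22 cells held 2 to 28 Mkx reads (median 7.5), at a median of 98.2 CPM, a level near that of the WT cells with reads. Since the deleted part of the gene is not known here, these reads do not check the label. Median depth was 74174 reads with and 72897 without. Of 6509 genes tested, 492 (7.56%) were higher and 891 (13.7%) lower in Mkx-/- cells with Mkx reads, counts much like those in WT.

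The individual genes were mostly not those of the WT split. Over the 5352 genes tested in both genotypes, Pearson's r of the log2 ratios was 0.029 and Spearman's rho 0.0087, across genes, which are not independent. Of these genes 35 were higher in both, 10.8% of those higher in WT and 11.3% of those higher in Mkx-/- cells, where 5.77% of all 5352 were higher in Mkx-/-. Genes lower in both made up 17.5% of the 736 lower in WT and 21.8% of the 591 lower in Mkx-/- cells, where 11% of all were lower in Mkx-/-. Opposite directions were seen as well. Of the genes higher in WT, 60 were lower in Mkx-/- cells, more than the 35 higher in both. Of the 736 genes lower in WT, 57 were higher in Mkx-/- cells. As shares, these opposite calls also exceeded the 11% and 5.77% of all genes. The same-direction shares alone therefore do not show that the genotypes agreed. In the 803 genes with at least 1000 reads in WT cells r was 0.14 and rho 0.10.

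Many of the leading genes of the WT split lay nearer to 0 in Mkx-/- cells. Fos stood at 0.23 (0.15 to 0.31), from 878 and 748 CPM, Egr1 at 0.00 (-0.18 to 0.17), Junb at 0.00 (-0.20 to 0.19), Zfp36 at 0.03 (-0.19 to 0.24) and Hes1 at -0.06 (-0.13 to 0.00). The median of the immediate early and heat shock list was 0.03 and that of the progenitor list 0.19. Tppp3 stood at 0.19 (-0.02 to 0.40) and Ly6a at 0.31 (0.23 to 0.40). Chad kept its direction at 0.47 (0.39 to 0.55), Mfap5 at -0.42 (-0.50 to -0.35) and Col1a2 at 0.08 (0.07 to 0.09). Tgfbr1 turned to -2.03 (-2.48 to -1.61), whereas Egr2 stood at 1.37 (0.97 to 1.78) and Pbx3 at -1.25 (-1.97 to -0.59), past 2-fold in the same direction in both genotypes. P4ha2 turned as well, to 1.52, and the sparse gene Nmb kept a large ratio, at -3.76. Whether the ratios differ between genotypes was not tested, as each genotype was 1 sample.

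**Figure D5:**
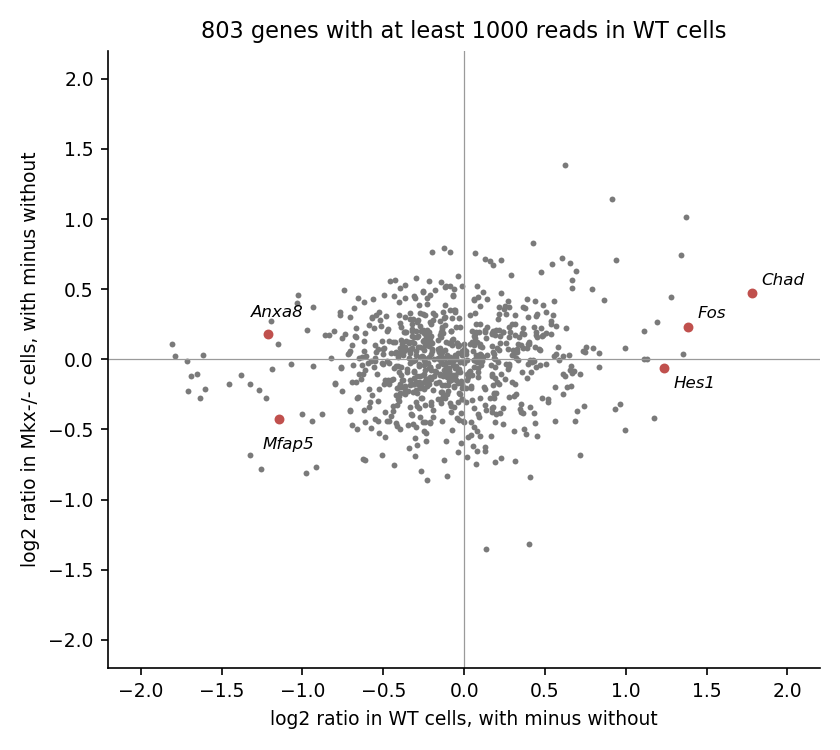
log2 ratio of cells with against without Mkx reads in WT (horizontal axis) and in Mkx-/- cells (vertical axis) for 803 genes with at least 1000 reads in WT cells. Of these, 762 lay within 2-fold in both genotypes; Fos, Hes1, Chad, Mfap5 and Anxa8 are named and lay near 0 on the vertical axis, with Chad at 0.47 and Mfap5 at -0.42.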

How the data were processed

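The deposited table holds the authors' raw counts of reads for each gene symbol in each cell. Per their methods, reads were cleaned with AfterQC, trimmed with NGSQCToolkit, aligned with bowtie2 and counted with featureCounts (versions not given in the sources used here). The methods and the submitters' notes name different mouse genome builds, so no positions are given. Whether strand was used is not given, so overlapping genes cannot be told apart, and reads were not collapsed to molecules.

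Of 48795 symbols, those with at least 100 reads over the 78 cells were compared, without Mkx, Tnmd and Fmod. Reads were summed over the cells of each set and divided by the summed total (CPM). Ratios are log2 of CPM with over CPM without Mkx reads, with exact conditional binomial 95% intervals, and shares have Clopper-Pearson intervals. A sum of 0 was set to 3 reads, which makes its ratio a bound, and genes with both sums at or under 3 have no ratio. The share of a gene's cells is of cells with at least 1 read. Thinning drew reads without replacement to 26755 per cell before the split, with 20 seeds. No cell was removed for the main values and no doublet caller was run; the submitters state that wells with no or several cells were left out. Scripts (Python 3.11.15, numpy 2.4.6, scipy 1.17.1) were tested on simulated data.

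Named genes were the 10 highest and 10 lowest ratios past 2-fold read in 20% or more of the higher set's cells and 1 sign in 3 further settings, and, from each list, the 4 members with the most reads and every member past 2-fold. Predicted symbols were counted but not named, and some genes that met the rule are not reported here. The cells, the split and the 23 gene lists were chosen with earlier results of these data known. With 1 sample per genotype no test was made.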

Additional observations from a re-analysis of the deposited data

How the results depend on the processing

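The share of WT tenocytes with Mkx reads stayed inside its interval under every alternative run, from 46.2% in the lowest thinned draw to 60% at a threshold of 11. A threshold of 9 gave 56.96% and a minimum of 2 Mkx reads 51.3%. The difference in median depth, 5996 reads more in cells with Mkx reads, ranged from 5264.5 to 7549.5. The number of higher genes moved to 653 when only the 39 cells at or above the median total were used, to 612 without the leading cell of each gene in each set, to 27 at a minimum of 500 reads, and to 2558 at a minimum of 1 read with 1 CPM added. The number of lower genes moved to 82 and 5229 with the same read minimums, where fewer or more genes were tested. Under the other alternatives the counts stayed within 1.5 times, at 390 to 571 higher and 655 to 1159 lower genes. Of the named genes, 59 were past 2-fold, and 8 of these changed sign in a thinned draw: Hspa1a (-2.20, in the first draw), Lyz2 (-2.48), Ppp4c (-1.25), Rpph1 (-0.53), Six2 (-0.22), Cspg4 (0.027), Mbp (0.051) and Scara5 (0.090). Of 1684 recomputed ratios of the named genes, 585 differed from the reported ratio by more than its counting interval allows, and 9 of genes past 2-fold changed sign. The cause was not tested. Of the recomputed list medians, 6 moved by more than the spread among the list's members. A change of sign was counted only for medians past 2-fold, and none was found. Some medians nearer 0 did change sign. Without leading cells the matricellular median went from -0.15 to 0.10 and the osteochondrogenic median from -0.17 to 0.05. Without the deepest well the mural median went from -0.60 to 0.05. Leaving out the deepest well was chosen after the data had been seen. In Mkx-/- cells the share, the 492 higher and the 891 lower genes stayed within these limits, at 22.6%, 574 to 655 and 963 to 1208. With 0 reads meaning either no transcript or a missed one, depth limits every statement on cells without Mkx reads.

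No paired analysis was possible because no result comes from a test.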
